A study of Mus musculus with 20 samples.

Results

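The monoamine and acetylcholine receptor genes were followed in RNA-Seq libraries of mouse brain. They were chosen by symbol alone, as every row of the count files named for a serotonin (Htr), adrenergic (Adra, Adrb), muscarinic (Chrm) or nicotinic (Chrn) receptor, with no measured value used. The choice gave 44 of the 47729 genes in the files, of which 14 were serotonin receptor genes, 9 adrenergic, 5 muscarinic and 16 nicotinic subunit genes. Dopamine and histamine receptors fell outside the choice and are described with the other genes of these pathways at the end.

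Cortex and hippocampus were dissected from the same 10 C57Bl/6J pups at postnatal day 7, 5 wild-type (WT, mice 1 to 5) and 5 labelled Ube3aOE (mice 6 to 10), which gave 4 groups of 5 libraries, 1 mouse each. Ube3aOE mice carry a bacterial artificial chromosome transgene with the whole Ube3a gene, a ubiquitin ligase, in a floxed construct under its own flanking sequence, in addition to the endogenous gene. They are called Ube3a+2 here, for 2 additional copies, as the study names the 2-copy genotype. No Cre driver is given in the labels, and the study centred on 1 transgenic line, so an effect of that line's insertion and an effect of Ube3a dose cannot be told apart. The comparisons asked which receptor genes differed between the regions at this age, and whether extra Ube3a changed them in either region.

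The libraries held 14191093 to 16752326 reads counted on genes. Ube3a was higher in every Ube3a+2 library than in every WT library of the same region, by a log2 fold change of 1.32 in hippocampus (adjusted p = 0.000441) and 1.31 in cortex (adjusted p = 0.000822). In 2 WT mice, 3 and 5, Xist and the Y-linked genes went against the labelled sex in both libraries. Summed neocortex markers were 809 to 1063 CPM (counts scaled to the size of each library) in cortex against 282 to 650.0 in hippocampus, and summed hippocampus markers 391 to 623 in hippocampus against 100.4 to 240.0 in cortex, so the dissections matched their labels. In 6 libraries, summed markers of another tissue exceeded 2 times the median of their own region. The cortex libraries of mice 8 and 9 held hippocampus markers at 240.0 and 227 CPM, against a cortex median of 113. The hippocampus library of mouse 10 held thalamus and habenula markers at 1616 CPM against a median of 261, mouse 4 held 703 and mouse 7 held 788. The hippocampus library of mouse 7 also held choroid plexus markers at 2093 CPM against a median of 71.95, and that of mouse 9 held them at 417 beside striatal markers at 759 against 84.9. WT hippocampus of mouse 2 stayed under that limit, with the most neocortex markers of its region (650.0 CPM) and the fewest hippocampus markers (391). Except for WT hippocampus of mouse 4, the 6 were Ube3a+2 libraries, so raised markers of another tissue and genotype cannot be fully told apart. Fits without the 6 kept, among Ube3a+2 mice, only hippocampus of mice 6 and 8 and cortex of mice 6, 7 and 10. The regional calls of receptor genes that changed when the 6 libraries were left out are given both ways. Counts for the other pathway genes come from the fit over all libraries, and those whose calls changed are named.

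These receptors convert signals released by brainstem and basal forebrain axons, and by local neurons, into changes of neuronal excitability. Most are G protein–coupled: Gq-linked receptors (muscarinic M1, M3 and M5, the serotonin 2 family, adrenergic alpha 1) raise phospholipase C activity, Gi-linked receptors (M2, M4, serotonin 1, alpha 2) lower cyclic AMP and open potassium channels, and Gs-linked receptors (serotonin 4, 6 and 7, beta adrenergic) raise cyclic AMP. Nicotinic receptors and the serotonin 3 receptor are instead pentameric cation channels built from subunits.

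Of the 44 genes, 30 passed the filter on low counts in the 20 libraries, and 14 did not. A gene at high level in 1 region only could pass through that region alone, and Chrm5 and Chrna1 did not pass it among the cortex libraries taken alone. Chrnb4 had a largest count of 162 in any library and Chrnb3 of 45, both in hippocampus of mouse 10. Adra2b followed with 38, Chrna6 with 19, Chrnb1 with 13, Chrne with 12, Adrb3 with 10, Htr2b with 7 and Chrna9 with 6. Chrna10, Chrnd and Htr3b did not exceed 3 reads, and Chrng, the fetal muscle subunit, did not exceed 1. At this depth, most of the muscle, autonomic and inner ear subunits were close to the limit of detection in both regions.

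Levels between genes were compared as CPM per kilobase of exon. In WT cortex Chrm1, which encodes the main Gq-linked muscarinic receptor of forebrain pyramidal neurons, stood first at 22.4 ± 1.95 (SD, n = 5), followed by the nicotinic subunits Chrna4 at 13.3 ± 0.626 and Chrnb2 at 9.97 ± 0.659, each above the next by more than their SDs. Htr7, a Gs-linked serotonin receptor, came next at 6.81 ± 1.24 and did not differ from Chrm4, at 6.37 ± 2.28, beyond their spread. In WT hippocampus Chrm1 again stood first at 25.6 CPM per kilobase, and Chrm3, Chrna4 and Chrnb2 followed at 11.6, 11.0 and 10.0, in an order that their SDs did not separate. The order depended on the length used. With the longest transcript in place of the merged exons, Chrm3 in WT hippocampus (16.7 ± 2.40) lay above Chrnb2 (13.1 ± 0.988) and Chrna4 (12.1 ± 3.22) beyond their SDs. In WT cortex Chrm3 (7.51 ± 0.836) was then level with Htr7 (7.34 ± 1.34). Of the 44 genes, 18 reached 1 CPM per kilobase in WT cortex and 22 in WT hippocampus. The 5 muscarinic genes together summed to 35.7 CPM per kilobase in WT cortex and 47.1 in WT hippocampus, the 16 nicotinic subunits to 28.8 and 32.4, the 14 serotonin receptors to 22.2 and 29.2, and the 9 adrenergic receptors to 15.1 and 18.7. The gene models of Chrm4 and Chrm5 in the annotation are a single exon of coding length, so that reads on their untranslated ends were not counted and their levels per kilobase are less certain.

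**Figure D1:**
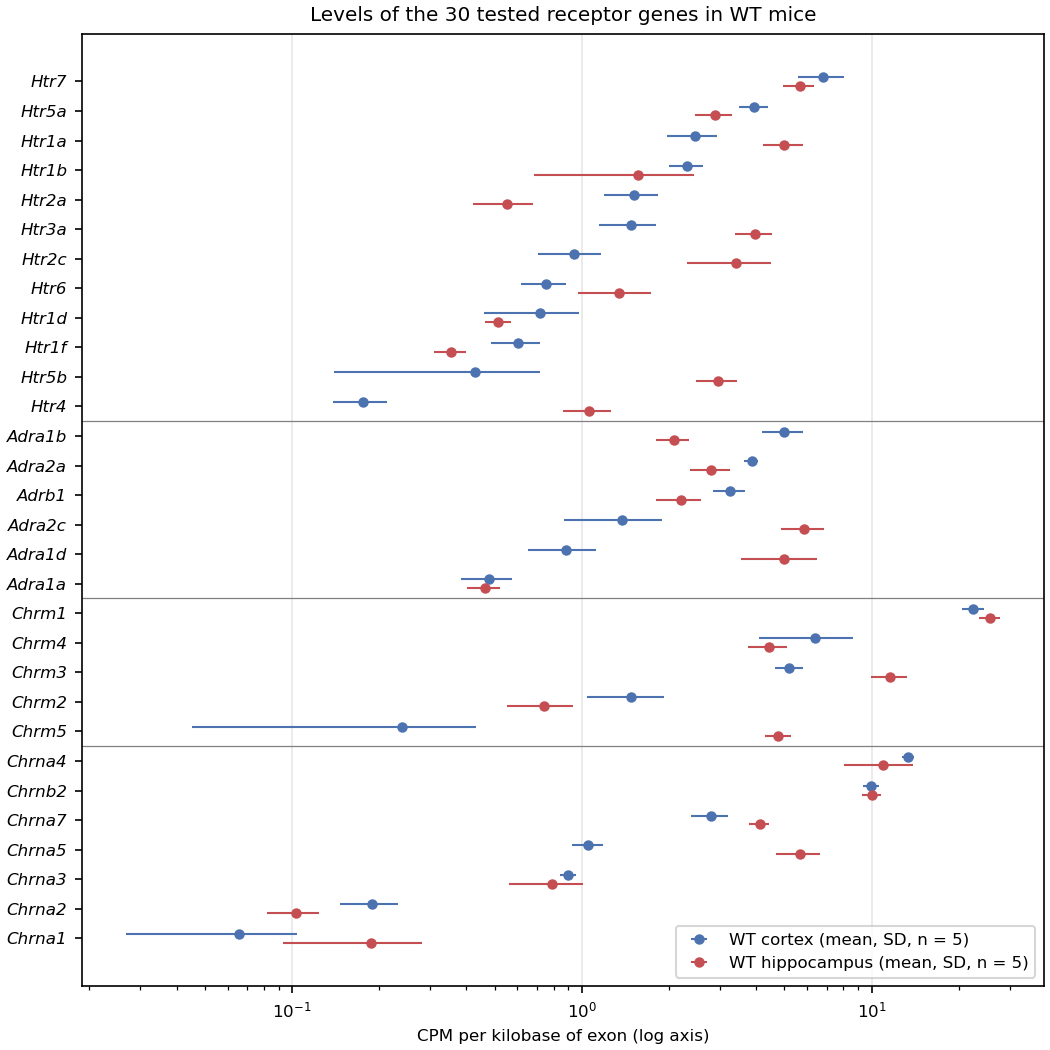
Levels of the 30 genes that passed the filter, as CPM per kilobase of exon on a log axis, in WT cortex (blue) and WT hippocampus (red), with points for the mean and bars for the SD over 5 mice, grouped by receptor class. Chrm1 is highest in both regions (22.4 and 25.6), and Chrm5 and Htr4 are among the lowest in cortex while above 1 in hippocampus.

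Between the regions, 20 of the 30 genes passed an adjusted p under 0.05, against 50.9% of all 15661 genes tested. In hippocampus 12 were higher (25.3% of all genes) and 8 lower (25.6%). With a log2 fold change of 1 or more either way there were 11, against 7.19% of all genes. Chrm5, Htr4, Chrna5, Adra2c and Htr2a, 5 in all, had no overlap between the 10 libraries of either region, against 9.25% of all genes. The median absolute log2 fold change of the 30 was 0.59, beside 0.20 over all genes. Since the filter let some genes pass only through the region where they were high, these shares describe the genes tested and not all 44. In bulk tissue, fewer cells of a type and less RNA per cell cannot be told apart. Without the 6 libraries that held markers of another tissue, 26 of 31 genes tested passed (45.8% of all genes in that fit), 14 higher (22.9%) and 12 lower (22.9%). The 6 calls gained were Htr1a and Chrm1, higher, and Chrna2, Chrna3, Chrna4 and Htr1b, lower, among them Chrna2 at a log2 fold change of -0.98 (adjusted p = 0.00287) against -0.47 (adjusted p = 0.135) over all libraries.

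Among the 30 genes tested, the widest regional difference was that of a muscarinic gene. Chrm5, a Gq-linked receptor known from midbrain dopamine neurons, was at 0.255, 0.897, 0.194, 0.128 and 0.435 CPM in WT cortex (mice 1 to 5) and at 0.190, 0.129, 4.77, 2.20 and 0.253 CPM in Ube3a+2 cortex (mice 6 to 10). In hippocampus it was at 7.26, 7.56, 8.44, 6.54 and 8.36 CPM in WT mice and at 8.99, 6.33, 9.03, 5.27 and 5.81 CPM in Ube3a+2 mice. Every hippocampus library lay above every cortex library, and the cortex libraries of mice 8 and 9 stood well above the other 8. Fitted over all libraries, the log2 fold change was 3.27 ± 0.45 (SE, adjusted p = 8.7e-06), a 9.66-fold difference, and 4.95 without the 6 libraries. Reads on Chrm5 in 8 cortex libraries numbered 2 to 12, so the size of the ratio rests on few reads.

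Chrm3, the Gq-linked M3 receptor, was at 36.7, 36.3, 29.4, 29.98 and 30.4 CPM in WT cortex and at 70.1, 65.2, 73.0, 64.1 and 89.9 in WT hippocampus. In Ube3a+2 mice it was at 35.6, 24.7, 54.3, 46.2 and 33.3 CPM in cortex and at 86.7, 60.5, 67.9, 49.8 and 56.9 in hippocampus. The WT groups did not overlap, the Ube3a+2 groups did through cortex of mouse 8, and all 10 mice had more Chrm3 in hippocampus. The log2 fold change was 0.94 ± 0.12 (adjusted p = 4.3e-06). Chrm1 was at 150.3, 137, 128, 157 and 155 CPM in WT cortex and at 164, 155, 168, 154 and 189 in WT hippocampus, and in Ube3a+2 mice at 148, 130.0, 141, 150.1 and 154 in cortex and 183, 117, 159, 166 and 107 in hippocampus. The regions overlapped, with 7 of 10 mice higher in hippocampus, and the log2 fold change of 0.10 had an interval from -0.06 to 0.27 (adjusted p = 0.286). In WT mice alone Chrm1 was higher in hippocampus by 0.21 (adjusted p = 0.0326), and without the 6 libraries by 0.24 (adjusted p = 0.00616). The Gi-linked receptors were lower in hippocampus, Chrm2 by a log2 fold change of -0.59 (adjusted p = 0.0444) and Chrm4 by -0.42 (adjusted p = 0.0421). Both calls were narrow: Chrm2 kept an adjusted p under 0.05 in 3 of the 10 fits that left out 1 mouse, over a range from -0.76 to -0.50, and Chrm4 in 3 of 10, from -0.51 to -0.35, while without the 6 libraries Chrm2 was at -1.17 (adjusted p = 0.000131) and Chrm4 at -0.59 (adjusted p = 0.0339). Those that cost Chrm2 the call were mice 1, 3, 5, 6, 7, 8 and 9, and those that cost Chrm4 the call were mice 1, 3, 4, 5, 6, 7 and 10.

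Among the nicotinic subunits, 3 of the 7 that passed the filter were higher in hippocampus and none lower. Chrna5, an accessory subunit that joins alpha 4 beta 2 receptors and alters their calcium permeability, had the smallest adjusted p of all receptor genes. It was at 3.63, 3.74, 2.78, 3.33 and 2.99 CPM in WT cortex and at 2.86, 4.65, 5.48, 6.71 and 2.97 in Ube3a+2 cortex. Hippocampus libraries held 20.5, 12.8, 19.0, 16.6 and 19.6 CPM in WT mice and 17.9, 15.1, 20.1, 13.2 and 13.3 in Ube3a+2 mice. The lowest hippocampus library lay far above the highest cortex library, which was that of mouse 9. The regions differed by a log2 fold change of 2.12 ± 0.14 (adjusted p = 4.7e-10), or 4.34-fold. Chrna1, known as the muscle alpha subunit, was low in both regions, at 1 to 9 reads in cortex and 6 to 23 in hippocampus, with a log2 fold change of 1.52 ± 0.29 (adjusted p = 0.000176) and overlapping groups. Its levels in CPM were 0.0637, 0.224, 0.388, 0.513 and 0.249 in WT cortex and 1.35, 0.553, 0.370, 0.689 and 1.15 in WT hippocampus, and in Ube3a+2 mice 0.381, 0.129, 0.537, 0.244 and 0.379 in cortex and 1.19, 0.905, 0.886, 0.707 and 1.26 in hippocampus. Chrna7, which forms homomeric channels with high calcium permeability, was higher in hippocampus by a log2 fold change of 0.54 (adjusted p = 1.4e-05).

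The most abundant subunits did not separate the regions in the main edgeR fit of all libraries. Chrna4 and Chrnb2 together form the high-affinity nicotine receptor of the forebrain. Chrna4 was at 71.7, 64.3, 66.3, 68.6 and 64.3 CPM in WT cortex and 48.3, 64.0, 48.2, 76.1 and 39.3 in WT hippocampus, and in Ube3a+2 mice at 63.6, 65.3, 76.7, 75.5 and 65.0 in cortex and 46.6, 81.0, 61.8, 69.4 and 152 in hippocampus. The hippocampus libraries spread widely, with mouse 10 highest, and mouse 4 highest among WT. Its log2 fold change was -0.02 (interval -0.36 to 0.33), and its sign changed when any of mice 1, 3, 5, 6, 8 and 9 was left out or with library totals in place of TMM factors (scaling factors between libraries); without the 6 libraries Chrna4 was lower in hippocampus, by -0.33 (adjusted p = 0.00802). Chrnb2 was at 81.8, 77.9, 79.5, 87.8 and 90.8 CPM in WT cortex and 75.8, 87.9, 80.5, 92.0 and 82.9 in WT hippocampus, and in Ube3a+2 mice at 91.3, 86.1, 87.6, 84.1 and 87.0 in cortex and 86.0, 96.1, 89.9, 94.8 and 128 in hippocampus. Its log2 fold change was 0.09, with an interval from -0.03 to 0.22, and mouse 10 again was the highest hippocampus library. Its result depended on the processing, as Chrnb2 was called higher in hippocampus in a setting other than the main fit. An exon of Chrnb2 overlaps an exon of Adar on the opposite strand, and the strand setting of the counting is not given in the sources used here. How reads in that overlap were counted is therefore not known. Reads set apart as ambiguous were 0.756% to 0.879% of all reads listed.

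Chrna5, Chrna3 and Chrnb4 are neighbours on chromosome 9 (GRCm38), at 54980880-55007779 on the plus strand, 55010111-55026562 on the minus strand and 55028154-55048779 on the minus strand. Chrna3 and Chrnb4 form the ganglionic receptor, and both are known as markers of the medial habenula. The genes were chosen for display after their values were seen, because they lie side by side and differed in pattern. Chrna3 was at 4.65, 5.16, 4.47, 4.93 and 4.48 CPM in WT cortex and 3.45, 4.73, 3.26, 5.97 and 3.29 in WT hippocampus. In Ube3a+2 mice it was at 4.00, 5.42, 5.25, 5.98 and 4.24 CPM in cortex and 3.16, 6.15, 3.96, 8.48 and 22.4 in hippocampus. Mouse 10 alone stood far above all other libraries. The log2 fold change between regions was 0.32 (adjusted p = 0.352), turned to -0.06 without mouse 10, and was -0.35 (adjusted p = 0.0352) without the 6 libraries. Chrnb4 had 0 to 5 reads in each cortex library, 3 to 11 in WT hippocampus, and 7, 18, 8, 10 and 162 in hippocampus of mice 6 to 10. In the hippocampus libraries the thalamus and habenula marker Tcf7l2 was at 564 CPM in mouse 10, 270.2 in mouse 7, 226 in mouse 4 and 46.1 in mouse 8, and between 2.83 and 6.17 in the other 6. The habenula markers Pou4f1 and Gpr151 did not follow it in every library: they were at 12.0 and 14.4 CPM in mouse 10 and 1.95 and 2.93 in mouse 4, but at 0.0603 and 0.241 in mouse 7, not above the other 7 libraries. The part of these tissues in the values of Chrna3 and Chrnb4 was not tested.

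The 250 bases upstream of the first RefSeq start (GRCm38.p6) were compared for the 2 neighbours with opposite strands and different patterns. Capitals mark matches to the GC box GGGCGG, the TATA box TATAAA, the CCAAT box, the cyclic AMP element TGACGTCA or the E-box CAGCTG, each read on both strands, and no matches overlap in the sequences printed.
Chrna5 chr9:54980630-54980879 (plus strand): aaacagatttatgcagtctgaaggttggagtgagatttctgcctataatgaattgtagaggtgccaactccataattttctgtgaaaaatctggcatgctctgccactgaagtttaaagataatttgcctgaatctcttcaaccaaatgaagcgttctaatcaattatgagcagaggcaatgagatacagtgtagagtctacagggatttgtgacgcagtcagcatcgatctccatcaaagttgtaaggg
Chrna3 chr9:55026563-55026812 (minus strand): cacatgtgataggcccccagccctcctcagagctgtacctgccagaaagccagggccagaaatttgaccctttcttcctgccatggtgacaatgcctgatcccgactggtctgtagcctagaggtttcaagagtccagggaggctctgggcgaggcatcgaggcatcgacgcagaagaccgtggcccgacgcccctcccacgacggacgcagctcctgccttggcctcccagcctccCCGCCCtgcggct

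The Chrna5 window held 40.0% G and C and none of the 5 motifs, and the Chrna3 window 63.2% and a GC box. RefSeq windows were found for 32 of the 44 receptor genes. A GC box stood in 13 of the 32 against 32.7% of 32851 RefSeq windows of the same length, a CCAAT box in 9 against 33.8%, CAGCTG in 7 against 13.0%, TATAAA in 2 against 12.4%, and TGACGTCA in 0 against 1.55%. A match describes letters and not a bound site.

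**Figure D2:**
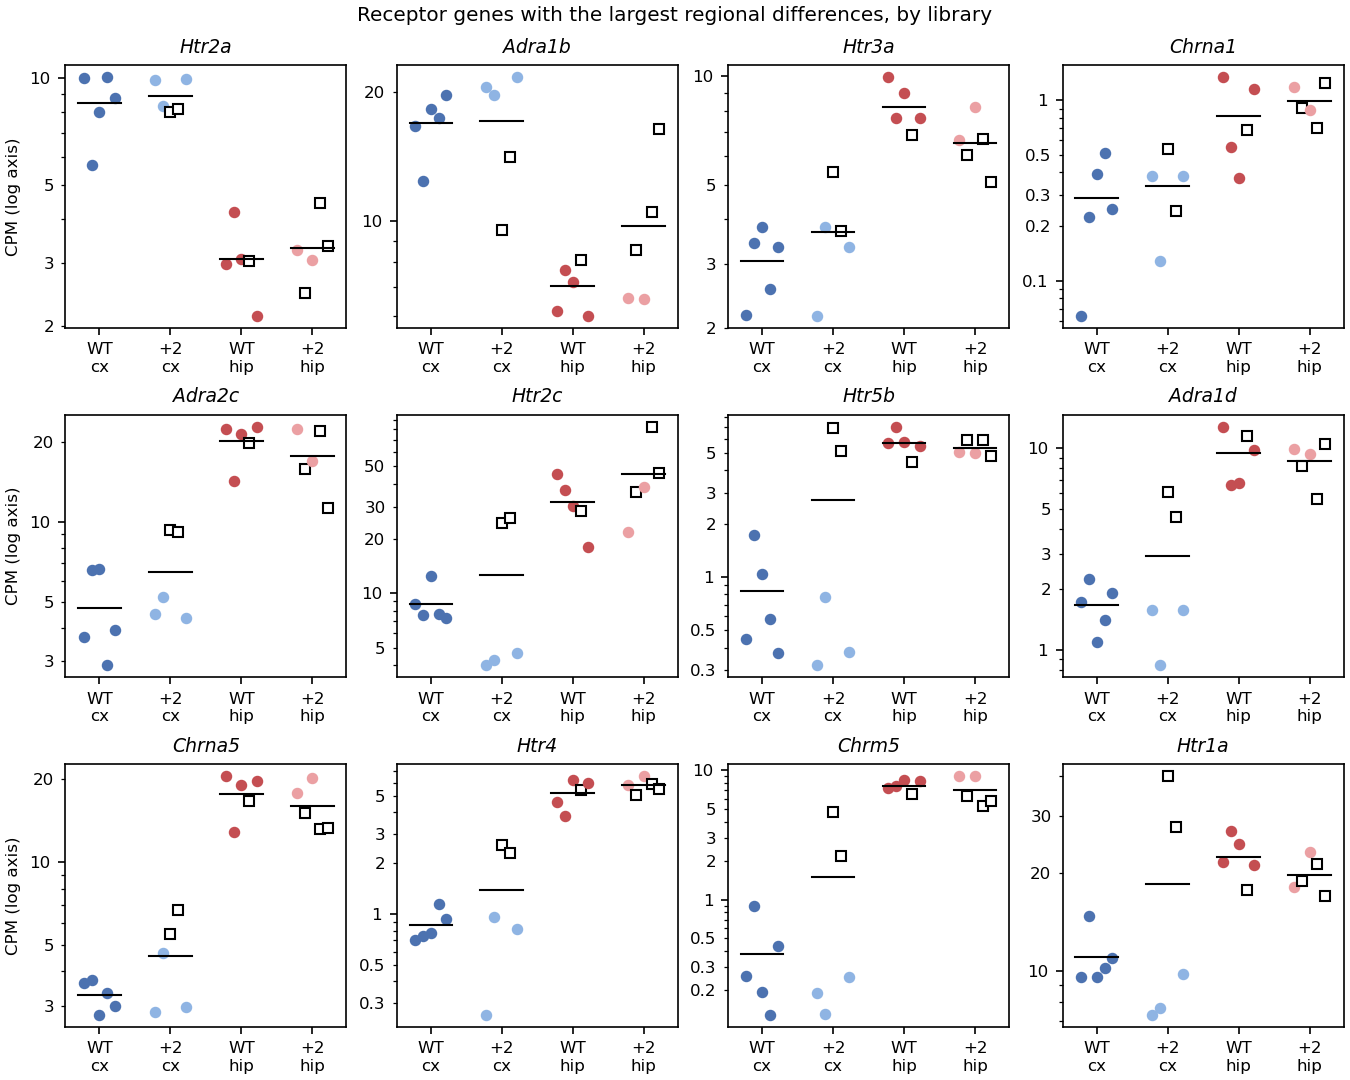
CPM on a log axis in each library for the 11 receptor genes with a log2 fold change of 1 or more between the regions, and for Htr1a, in WT and Ube3a+2 (+2) cortex (cx) and hippocampus (hip), with a line at the mean of 5 mice. Open squares are the 6 libraries with markers of another tissue, among them cortex of mice 8 and 9, which stand apart for Chrm5, Htr5b and Htr1a.

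Of the 12 serotonin receptor genes that passed the filter, 5 were higher in hippocampus and 3 lower. Htr4, a Gs-linked receptor, was at 0.701, 0.747, 0.777, 1.15 and 0.933 CPM in WT cortex and 0.254, 0.969, 2.56, 2.32 and 0.822 in Ube3a+2 cortex. Its hippocampus levels were 4.63, 3.81, 6.22, 5.40 and 6.00 CPM in WT mice and 5.83, 5.07, 6.55, 5.91 and 5.51 in Ube3a+2 mice. The regions did not overlap, and the log2 fold change was 2.31 ± 0.23 (adjusted p = 9.1e-08). Htr5b, a receptor gene that is intact in rodents, was at 0.446, 1.72, 1.04, 0.577 and 0.373 CPM in WT cortex and 0.317, 0.775, 6.98, 5.12 and 0.379 in Ube3a+2 cortex. In hippocampus it was at 5.74, 7.07, 5.79, 4.48 and 5.48 CPM in WT mice and 5.12, 5.91, 5.02, 5.98 and 4.85 in Ube3a+2 mice. Its hippocampus levels were even across mice, while cortex of mice 8 and 9 reached the hippocampus range. Fitted over all libraries, the log2 fold change was 1.89 ± 0.43 (adjusted p = 0.00125), and 3.12 without the 6 libraries.

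Htr3a, the channel-forming subunit found in a class of cortical interneurons, was at 2.17, 3.44, 3.82, 2.56 and 3.36 CPM in WT cortex and 9.95, 7.68, 8.99, 6.89 and 7.67 in WT hippocampus. In Ube3a+2 mice it was at 2.16, 3.81, 5.43, 3.72 and 3.35 CPM in cortex and 6.67, 6.03, 8.21, 6.68 and 5.09 in hippocampus. The WT groups did not overlap, and in Ube3a+2 mice cortex of mouse 8 passed hippocampus of mouse 10. The log2 fold change was 1.12 ± 0.14 (adjusted p = 9.6e-07). Htr6, a Gs-linked receptor, was also higher, by 0.81 (adjusted p = 8.1e-05). Summed markers of GABAergic neurons in WT mice were 499 to 579 CPM in cortex and 639 to 711 in hippocampus, without overlap. In Ube3a+2 mice they were 513 to 692 CPM in cortex and 480.0 (mouse 10) to 1123 (mouse 9) in hippocampus, and these ranges overlapped. The part of these markers in the values of Htr3a and Htr6 was not tested.

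Htr2c, a Gq-linked receptor on the X chromosome that is abundant in choroid plexus, was at 8.67, 7.62, 12.4, 7.69 and 7.28 CPM in WT cortex and 4.00, 4.26, 24.3, 25.9 and 4.68 in Ube3a+2 cortex. Hippocampus libraries held 45.1, 37.1, 30.1, 28.2 and 18.1 CPM in WT mice and 21.8, 36.2, 38.6, 82.7 and 46.0 in Ube3a+2 mice. All 10 mice had more Htr2c in hippocampus, with mouse 9 highest in both regions, and the regions overlapped through cortex of mice 8 and 9. The regions differed by a log2 fold change of 1.84 ± 0.36 (adjusted p = 0.000386), and 2.36 without the 6 libraries, which removed both hippocampus libraries with raised choroid plexus markers. Those libraries, mice 7 and 9, held 2093 and 417 CPM of choroid plexus markers and 36.2 and 82.7 CPM of Htr2c. The window upstream of its first start is shown as a gene that was higher in hippocampus, with a CCAAT box, read on the opposite strand, in capitals.
Htr2c chrX:146962263-146962512 (plus strand): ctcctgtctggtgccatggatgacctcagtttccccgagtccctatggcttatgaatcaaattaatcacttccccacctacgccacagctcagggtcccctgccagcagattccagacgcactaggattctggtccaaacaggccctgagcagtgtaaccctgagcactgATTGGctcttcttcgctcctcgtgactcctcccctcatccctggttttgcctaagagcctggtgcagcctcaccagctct

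Htr2a, the Gq-linked receptor of neocortical pyramidal neurons, had the largest difference in the other direction. It was at 10.0, 5.68, 8.02, 10.1 and 8.77 CPM in WT cortex and 9.90, 8.33, 8.05, 8.17 and 9.93 in Ube3a+2 cortex. Its hippocampus levels were 2.99, 4.18, 3.08, 3.04 and 2.13 CPM in WT mice and 3.27, 2.47, 3.07, 4.43 and 3.35 in Ube3a+2 mice. No hippocampus library reached the lowest cortex library, and the 4 groups were otherwise even. Its log2 fold change was -1.44 ± 0.12 (adjusted p = 1.0e-08). The Gi-linked Htr1f was lower by a log2 fold change of -0.88 (adjusted p = 0.000646) and Htr5a by -0.44 (adjusted p = 0.000161).

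Htr1a, the Gi-linked receptor of hippocampal pyramidal neurons, was not called over all libraries and is described after its values were seen. It was at 9.56, 14.7, 9.58, 10.2 and 10.9 CPM in WT cortex and 21.6, 27.0, 24.6, 17.7 and 21.2 in WT hippocampus. In Ube3a+2 mice it was at 7.30, 7.68, 39.9, 27.8 and 9.74 CPM in cortex and 18.1, 18.9, 23.3, 21.3 and 17.0 in hippocampus. Cortex of mice 8 and 9 held more Htr1a than any hippocampus library, and in the other 8 mice hippocampus was higher. Fitted over all libraries, the log2 fold change was 0.56 (adjusted p = 0.0809) over all libraries, 1.05 (adjusted p = 4.1e-05) in WT mice, 0.77 (adjusted p = 0.00674) without mouse 8, 0.70 (adjusted p = 0.0165) with the mouse as a block, and 1.22 (adjusted p = 1.9e-07) without the 6 libraries. The hippocampus marker Fibcd1 was at 54.6 and 44.0 CPM in cortex of mice 8 and 9 and between 5.17 and 10.2 in the other 8 cortex libraries, and its part in the values of Htr1a, Htr5b and Chrm5 was not tested. The Gi-linked Htr1b and Htr1d, and Htr7, were not called over all libraries, at log2 fold changes of -0.12, -0.10 and -0.07. Without the 6 libraries Htr1b was at -0.75 (adjusted p = 0.00192), while without mouse 8 alone Htr1b and Htr1d turned to 0.02 and 0.0095, not called.

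**Figure D3:**
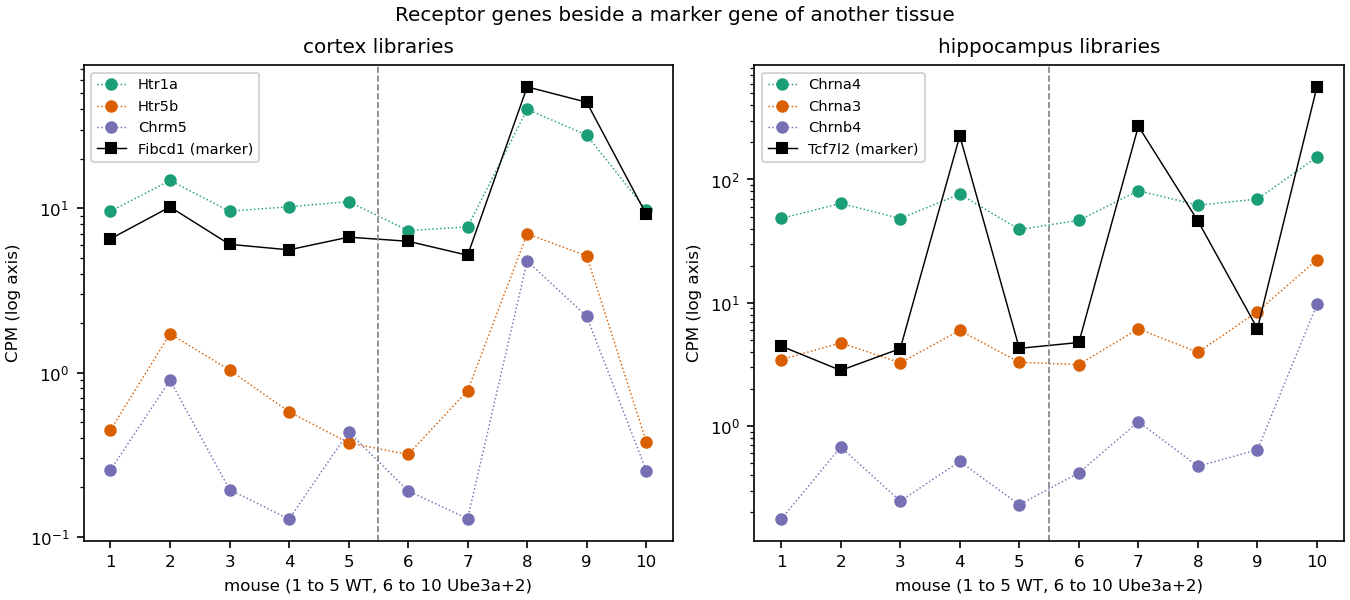
CPM on a log axis by mouse, with Htr1a, Htr5b and Chrm5 beside the hippocampus marker Fibcd1 in the 10 cortex libraries (left) and Chrna4, Chrna3 and Chrnb4 beside the thalamus and habenula marker Tcf7l2 in the 10 hippocampus libraries (right); the dashed line parts WT from Ube3a+2 mice. Fibcd1 is highest in cortex of mice 8 and 9, and Tcf7l2 in hippocampus of mice 10, 7 and 4.

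The adrenergic genes that passed the filter divided by subtype, with 2 higher in hippocampus, 3 lower and 1, Adra1a, not called (log2 fold change -0.05, interval -0.32 to 0.23). Adra1d, a Gq-linked alpha 1 receptor, was at 1.72, 2.24, 1.10, 1.41 and 1.93 CPM in WT cortex and 1.59, 0.839, 6.08, 4.57 and 1.58 in Ube3a+2 cortex. In hippocampus it was at 12.8, 6.58, 6.77, 11.5 and 9.81 CPM in WT mice and 9.88, 8.14, 9.39, 5.59 and 10.5 in Ube3a+2 mice. The regions overlapped only through cortex of mouse 8 and hippocampus of mouse 9, and the log2 fold change was 2.03 ± 0.27 (adjusted p = 5.0e-06). Adra2c, a Gi-linked alpha 2 receptor, was at 3.70, 6.57, 6.67, 2.88 and 3.92 CPM in WT cortex and 4.51, 5.23, 9.30, 9.15 and 4.36 in Ube3a+2 cortex. Hippocampus libraries held 22.4, 14.3, 21.4, 19.9 and 22.9 CPM in WT mice and 22.4, 15.9, 16.9, 22.0 and 11.3 in Ube3a+2 mice. No library of one region reached the other, and the log2 fold change was 1.77 ± 0.18 (adjusted p = 2.4e-07).

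Adra1b, the other abundant alpha 1 receptor, went the opposite way to Adra1d. It was at 16.7, 12.4, 18.3, 17.4 and 19.7 CPM in WT cortex and 20.6, 19.7, 9.54, 14.1 and 21.7 in Ube3a+2 cortex. Its hippocampus levels were 6.15, 7.68, 7.21, 8.09 and 6.00 CPM in WT mice and 6.61, 8.56, 6.55, 10.5 and 16.4 in Ube3a+2 mice. All 10 mice had less in hippocampus, and the regions overlapped where hippocampus of mice 9 and 10 reached the lower cortex values. The log2 fold change was -1.04 ± 0.17 (adjusted p = 3.8e-05). Its upstream window is printed beside that of Htr2c as a gene that was lower in hippocampus, with 2 CCAAT boxes in capitals.
Adra1b chr11:43901238-43901487 (minus strand): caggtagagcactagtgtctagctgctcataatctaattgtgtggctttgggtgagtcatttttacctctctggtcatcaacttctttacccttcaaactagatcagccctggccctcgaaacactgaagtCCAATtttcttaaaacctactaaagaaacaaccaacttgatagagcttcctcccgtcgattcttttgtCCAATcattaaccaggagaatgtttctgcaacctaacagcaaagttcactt

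Adrb1, the Gs-linked beta receptor of forebrain neurons, was lower in hippocampus by a log2 fold change of -0.58 (adjusted p = 0.000227), and the Gi-linked Adra2a by -0.57 (adjusted p = 0.00271). Exons of 8 receptor genes overlap another gene on the opposite strand, and 18 of the 20 calls remained among the genes without such overlap.

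Each genotype was then fitted alone, in mice and libraries that the other fit did not share. In WT mice 20 of 28 genes tested were called, against 38.0% of all genes, 13 higher in hippocampus (20.4%) and 7 lower (17.6%). In Ube3a+2 mice 13 of 30 were called, against 26.9%, 9 higher (14.4%) and 4 lower (12.5%). No overlap between the regions was found for 16 genes in WT mice, against 25.3%, and for 7 in Ube3a+2 mice, against 18.8%. Of the 28 genes tested in both, 23 had the same sign, and 12 were called in both with the same sign, which was 60.0% of the WT calls and 100% of the Ube3a+2 calls among them. Chrna1 was the other Ube3a+2 call and was not tested in WT mice. The 8 genes called in WT mice alone were Adra1b, Adra2a, Chrm1, Chrm2, Chrm5, Htr1a, Htr2c and Htr5b. Without the libraries that held markers of another tissue, 20 of 30 genes tested were called in Ube3a+2 mice (25.2% of all genes in that fit) and 22 of 28 in WT mice (34.2%). That Ube3a+2 fit rested on hippocampus of mice 6 and 8 and cortex of mice 6, 7 and 10, so its groups were small and unequal.

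The difference between the genotypes in regional contrast was tested directly. With edgeR 0 of the 30 genes passed (0.0% of all genes), and 4 had an unadjusted p under 0.05, against 3.77% of all genes, namely Chrm5, Chrna5, Htr3a and Htr5b. DESeq2 gave 0 and 4 (2.58% of all genes in that fit), and limma voom 0 and 1 (3.40%). The widest was Chrm5, with a log2 fold change of 4.36 in WT mice and 2.22 in Ube3a+2 mice, a difference of -2.13 (interval -4.10 to -0.17, adjusted p = 0.997), where the 2 Ube3a+2 cortex libraries of mice 8 and 9 also held the raised hippocampus markers given above. For Htr2a the values were -1.45 and -1.41, a difference of 0.05 (interval -0.47 to 0.56).

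**Figure D4:**
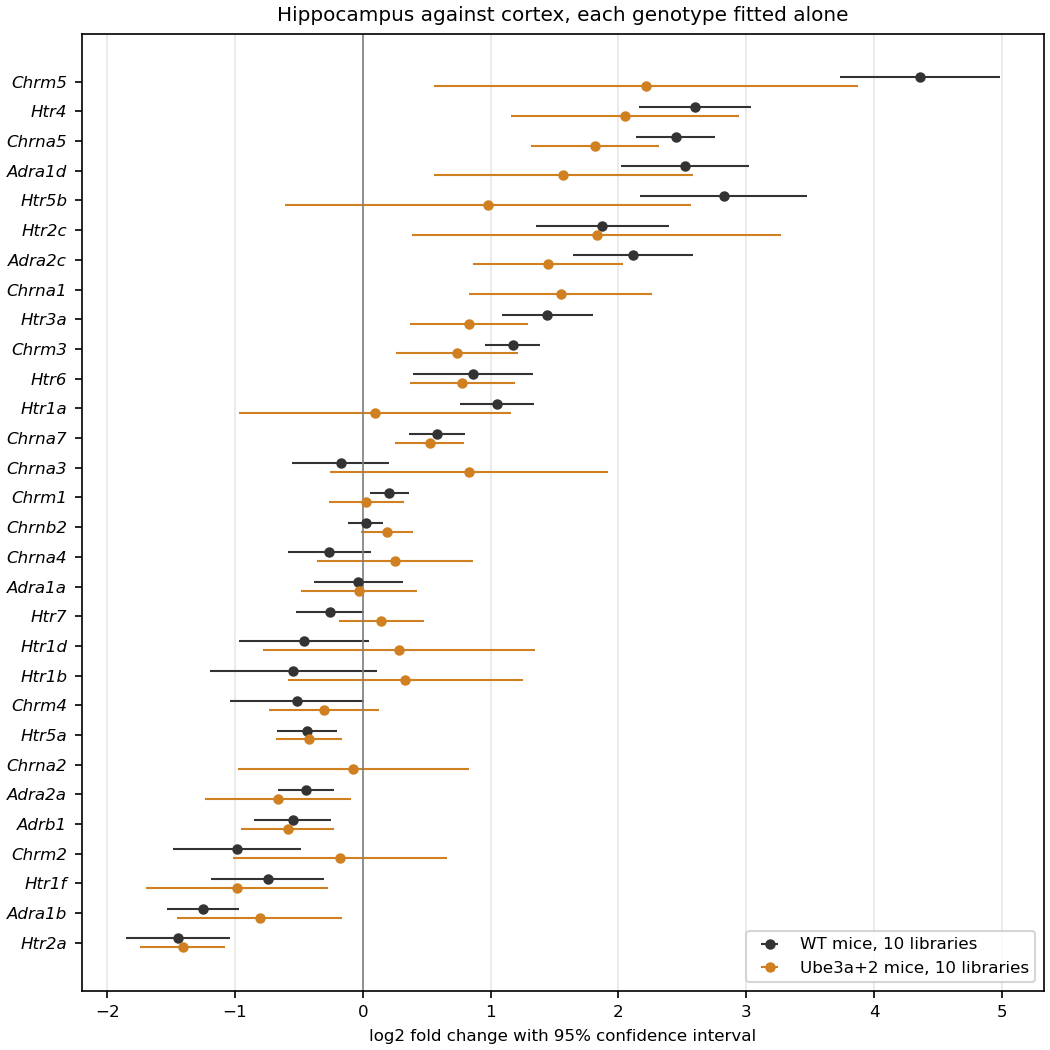
Log2 fold change of hippocampus against cortex with its 95% confidence interval for each receptor gene tested, fitted in the 10 WT libraries (black) and in the 10 Ube3a+2 libraries (orange). Htr2a lies near -1.4 in both genotypes, while the Ube3a+2 intervals of Chrm5, Htr5b, Htr2c and Htr1a are wider than those of WT.

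No receptor gene passed the threshold between the genotypes. In hippocampus 0 of 29 genes tested were called by edgeR, against 0.00657% of all genes, which was Ube3a itself. An unadjusted p under 0.05 was reached by 3 genes, against 7.21% of all genes: Chrnb2 at a log2 fold change of 0.24, Htr7 at 0.30 and Htr3a at -0.34, each with an adjusted p of 0.668 in edgeR. In Htr7 and Htr3a, as in Chrnb2 above, the WT and Ube3a+2 mice overlapped, with Htr7 at 15.9 to 21.9 CPM in WT and 19.4 to 31.2 in Ube3a+2 hippocampus. DESeq2, run without the filter, called 0 of 42 with 9 at an unadjusted p under 0.05 (4.87% of all genes in that fit), and limma voom called 0 of 29 with 3 (7.43%). In cortex 0 of 28 genes were called, against 0.00669% of all genes, and 0 had an unadjusted p under 0.05, against 4.44% of all genes. There DESeq2 and limma voom each called 0 with 0 unadjusted. Groups of mice that did not overlap were found for 0 receptor genes in either region, against 1.13% of all genes in hippocampus and 0.676% in cortex.

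The precision of these genotype comparisons differed between genes. The 95% interval lay within -0.5 and 0.5, the borders the study set on the log2 fold change, for 11 of 29 genes in hippocampus, against 69.9% of all genes, and for 11 of 28 in cortex, against 73.8%. Among the bounded genes in cortex were Chrm1 at -0.01 (interval -0.15 to 0.14), Chrnb2 at 0.06 (interval -0.05 to 0.18) and Chrna4 at 0.05 (interval -0.10 to 0.20). The widest uncalled differences were Chrna3 at 1.08 (interval -0.07 to 2.24), Htr1b at 1.08 (interval -0.07 to 2.22) and Chrm2 at 0.84 (interval -0.01 to 1.69) in hippocampus, and Htr5b at 1.75 (interval -0.29 to 3.79) in cortex. In the first 3, mouse 10 was the highest hippocampus library, at 22.4 CPM of Chrna3, 26.2 of Htr1b and 16.8 of Chrm2. For Htr5b the cortex libraries of mice 8 and 9, which held the raised hippocampus markers, were highest, at up to 6.98 CPM. The part of those markers in this difference was not tested. The intervals of all 4 reached past a log2 fold change of 1.

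**Figure D5:**
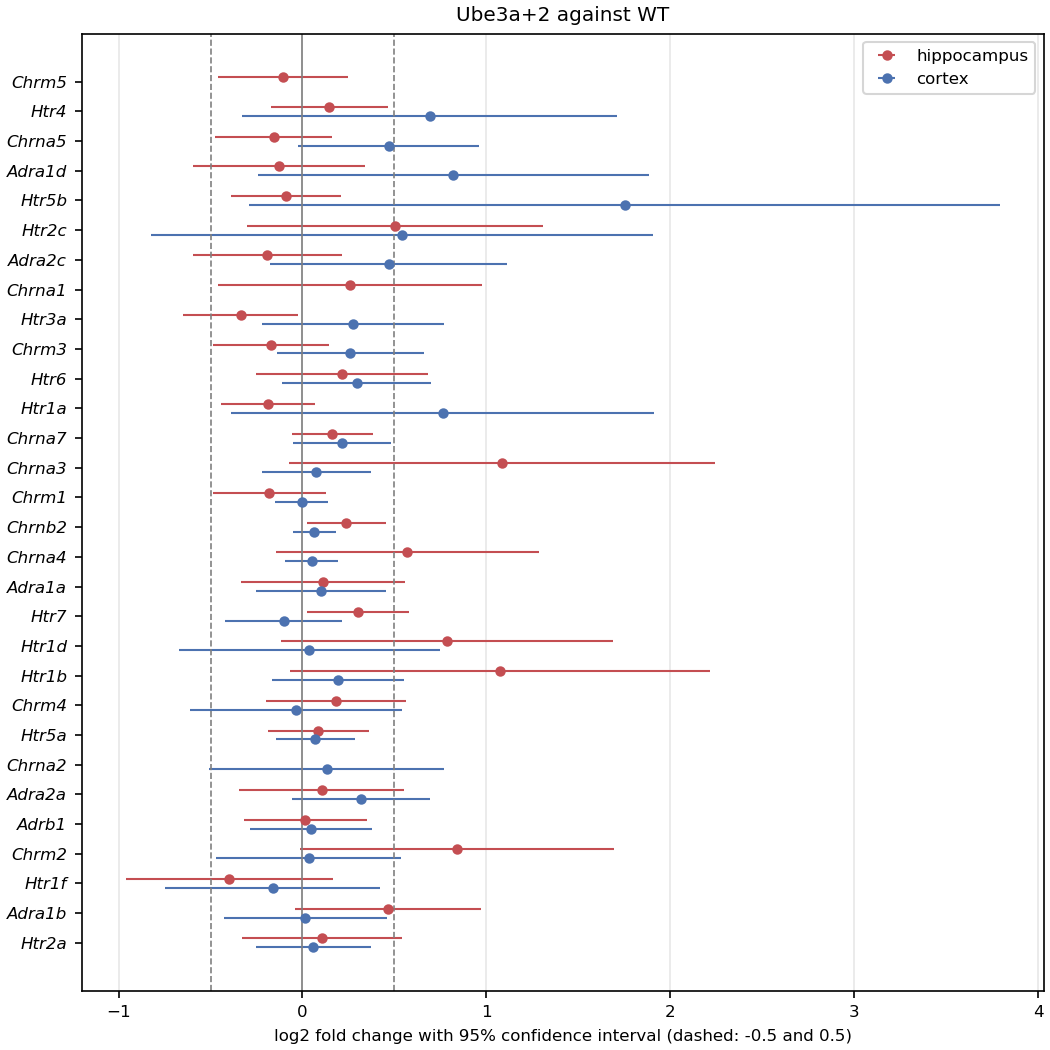
Log2 fold change of Ube3a+2 against WT with its 95% confidence interval for each receptor gene tested, in hippocampus (red) and cortex (blue), with dashed lines at -0.5 and 0.5. No gene passed the adjusted threshold, and the widest interval is that of Htr5b in cortex, -0.29 to 3.79.

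Other genes of the monoamine and acetylcholine pathways were listed by symbol. Of 85 symbols, 82 were in the files and 73 were tested between the regions. Grk2 and Grk3 were listed also as Adrbk1 and Adrbk2, the symbols under which they were tested. Of these 48 were called, 65.8% against 50.9% of all genes, 17 higher and 31 lower in hippocampus (25.3% and 25.6% of all genes). None was called between genotypes with edgeR, with 5 of 69 at an unadjusted p under 0.05 in hippocampus (7.21% of all genes) and 9 of 68 in cortex (4.44%), and DESeq2 called 0 in each region.

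Genes for transmitter supply and removal were called in 15 of 21 cases (71.4%, beside the 50.9% of all genes), 6 higher and 9 lower. The low-affinity monoamine transporter Slc22a3 was lower in hippocampus (log2 fold change -1.52), as were Dbh (-1.60), which makes noradrenaline from dopamine, and Colq (-1.46), the collagen tail that anchors acetylcholinesterase. The vesicular transporters Slc18a3 for acetylcholine (1.94) and Slc18a2 for monoamines (1.29) were higher in hippocampus, and were at 1.54 and 1.15 without the 6 libraries, with both calls kept. Markers of basal forebrain cholinergic neurons summed to 25.3 CPM in hippocampus of mouse 9 and 11.5 in mouse 10 against a median of 3.02, and their part in the value of Slc18a3 was not tested. Several calls were lost without the 6 libraries. Slc6a4, the serotonin transporter, went from 1.82 (adjusted p = 0.0482) to -0.07 (adjusted p = 0.924). Slc22a2, a transporter related to Slc22a3, went from -1.31 (adjusted p = 0.0397) to -0.33 (adjusted p = 0.703), and Slc5a7 from 0.91 (adjusted p = 0.0392) to -0.14 (adjusted p = 0.676). Calls of Tph2, Ddc, Maoa and Maob were also lost, while calls of Ache and Bche were gained. The share of 71.4% therefore belongs to the fit over all libraries. Slc6a4 ranged from 0.298 to 28.6 CPM across the hippocampus libraries.

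Of 6 dopamine and histamine receptors tested, 5 were called (83.3%, beside 50.9%). Drd5, a Gs-linked dopamine receptor, was higher in hippocampus by 2.57, at 4.30 to 8.92 CPM against 0.746 to 1.52 in cortex, without overlap. Drd2 was higher by 1.40, while the histamine autoreceptor Hrh3 (-1.62) and Drd1 (-1.35) were lower. Hrh2 was not called over all libraries (-0.22, adjusted p = 0.252) and was called lower without the 6 libraries (-0.53, adjusted p = 0.0228). Drd1 and Drd2 are also striatal markers, and the highest hippocampus libraries held 33.3 CPM of Drd1 and 16.8 of Drd2.

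Nicotinic chaperones and Ly6 prototoxins were called in 7 of 11 cases (63.6%, beside 50.9%), 4 higher and 3 lower, with Musk, the receptor kinase of the neuromuscular junction, at 2.82 and Lynx1, a membrane-bound inhibitor of nicotinic receptors, at 1.04. Of the G proteins, kinases, arrestins and effectors 21 of 35 were called (60% beside 50.9%), 5 higher and 16 lower. Adcy1, a calcium-stimulated adenylyl cyclase, had the highest CPM of the pathway genes named for an absolute log2 fold change of at least 1. It was lower in hippocampus by -1.13, at 711 to 1375 CPM against 1566 to 2746. The G protein–gated potassium channel subunit Kcnj9 was lower by -1.11, whereas Gna14, a Gq-class alpha subunit (2.28), and Rgs8, a regulator of G protein signaling (1.10), were higher. Without the 6 libraries the calls of Agrn and Gnai1 were lost, and Arrb2, Adcy5, Rgs2, Rgs9 and Plcb4 were called.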

How the data were processed

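Total RNA of 20 tissue pieces (10 mice, cortex and hippocampus of each) was made into stranded mRNA libraries per the labels. The authors deposited 1 file of raw counts per library, whole reads per gene, made with HISAT2 2.1.0 and HTSeq 0.11.2 on GRCm38 (mm10) according to the submitters' processing notes; the strand setting of the counting is not given in the sources used here. Of all reads listed, 69.7% to 81.2% were on genes, 10.3% to 13.7% were not uniquely aligned and 4.46% to 7.12% lay outside genes, and rows that name no gene were left out. Gene identifiers matched GENCODE M21 for 98.9% of rows.

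Counts were filtered by expression, scaled by TMM and tested with the quasi-likelihood F test of edgeR 4.0.16 (R 4.3.3), robust, without a mouse block. Benjamini-Hochberg adjustment ran over all genes tested (14947 to 15661), and a gene was called at an adjusted p under 0.05. The regional contrast used all 20 libraries or 10 of 1 genotype, and the genotype contrast the 10 of 1 region. CPM were taken with TMM factors, and levels per kilobase divided them by the merged exon length. Scripts were tested on simulated data. Tables and figures used pandas 2.3.3 and matplotlib 3.10.9 in Python 3.11.15.

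Receptor genes were taken by symbol alone, but this group of genes as a topic, the pathway lists and the marker lists were chosen with earlier results of these data known. Values in every library were given for receptor genes with an absolute log2 fold change of at least 1 between regions and adjusted p under 0.05, and for the 3 highest per kilobase in each region; pathway genes were named past the same limits. Others named were chosen after their values were seen. The values of 1 receptor gene below the filter and of 1 pathway gene are not reported here.

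The same mouse number marks both regions of 1 animal per the labels, so mouse numbers pair the libraries of a regional contrast; across genes the paired deviations correlated at a median of 0.215 and above 0.1 in 9 of 10 mice (lowest -0.0367). Alternatives were DESeq2 1.42.0, limma voom (limma 3.58.1), library totals without TMM, no filter, the labelled sex as a covariate, the mouse as a block, each mouse left out, and, added after seeing the data, the 6 libraries with markers of another tissue left out. Groups of 5 limit precision, and genotype p-values measure the spread between these mice. The regional fit over all libraries, without a mouse block, treated both libraries of a mouse as independent. Its p-values therefore do not measure the spread between mice alone.

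Summed markers were compared for 13 tissues and cell types; those not given beside a result ranged, over all libraries, from 0.894 to 25.3 CPM for basal forebrain cholinergic neurons (hippocampus of mouse 9 highest), 83.2 to 250.1 for blood, 140.2 to 384 for Cajal-Retzius cells, 564 to 1200 for astrocytes, 67.1 to 138 for microglia, 342 to 592 for the oligodendrocyte lineage and 132 to 279 for vascular and meningeal cells.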

Additional observations from a re-analysis of the deposited data

Results flagged for a closer look

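In each group of 5 libraries the highest or lowest CPM was compared with the others by Dixon's criterion (critical value 0.710). For normally spread values, chance alone passes it in about 1 of 20 groups, or 6.7 of the 134 groups tested. Here 17 receptor values in 9 libraries passed it. The criterion was run on receptor genes alone, so the share over all genes is not known and no excess among receptor genes can be read from these counts.

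Hippocampus of mouse 10 (Ube3a+2) was the highest of its group for the nicotinic subunits Chrna3 (22.4 CPM, the others 3.16 to 8.48), Chrnb2 (128, the others 86.0 to 96.1), Chrnb3 (2.69, the others 0 to 0.302) and Chrnb4 (9.70, the others 0.417 to 1.09). The same library held 1616 CPM of thalamus and habenula markers. Hippocampus of mouse 9 (Ube3a+2) was the highest for Chrm4 (10.8 CPM, the others 5.73 to 6.82), Chrna2 (1.67, the others 0.417 to 0.718) and Htr1d (7.13, the others 1.54 to 2.08), and held 759 CPM of striatal markers.

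Cortex of mouse 2 (WT) was the lowest of its group for Adrb1 (8.52 CPM, the others 11.2 to 12.0) and Chrm2 (4.33, the others 9.12 to 11.0) and the highest for Htr1a (14.7, the others 9.56 to 10.9), and hippocampus of the same mouse was the lowest for Adrb1 (5.10, the others 7.64 to 8.31). Hippocampus of mouse 4 (WT) was the highest for Chrm2 (6.49 CPM, the others 3.69 to 4.33) and for Adra2b (0.689, the others 0.0586 to 0.173). The other values that stood apart were Adrb3 in hippocampus of mouse 1 (0.586 CPM, the others 0.173 to 0.230), Htr2c in cortex of mouse 3 (12.4, the others 7.28 to 8.67), Htr1b in cortex of mouse 5 (13.5, the others 9.79 to 10.8) and Chrne in cortex of mouse 8 (0.715, the others 0 to 0.127). The causes were not tested.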

How the results depend on the processing

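Of the 30 receptor genes tested between regions, 19 kept both call and direction in all 17 settings each was fitted under. The regional count of 20 ranged from 18 to 22 over the fits without 1 mouse. In Ube3a+2 mice the count of 13 (4 lower in hippocampus) ranged from 8 to 13 (1 to 4 lower) with 1 mouse left out, lowest without mouse 6 or 7 (8, and 1 lower), and was 20 (7 lower) without the libraries with markers of another tissue; the cause was not tested. With the mouse as a block, which the pairing of libraries by animal allows, 21 genes were called, Htr1a being added, and 15 in Ube3a+2 mice; no other call changed in the regional fit. Genotype counts and the test of the difference stayed at 0 under every setting run. Without the 6 libraries, Ube3a+2 mice were represented by mice 6 and 8 in hippocampus and by mice 6, 7 and 10 in cortex. A count of 0 in that setting therefore says little about a genotype difference. Signs turned for uncalled genes. Without 1 mouse, the log2 fold change ranged from -0.20 to 0.046 for Chrna4 (positive without mouse 1, 3, 5, 6, 8 or 9), from -0.11 to 0.015 for Adra1a (positive without mouse 5), from -0.31 to 0.017 for Htr1b and -0.28 to 0.0095 for Htr1d (positive without mouse 8), and from -0.060 to 0.42 for Chrna3 (negative without mouse 10). With library totals Chrna4 was at 0.043 and Adra1a at 0.0095. Without the 6 libraries Adra1a was at 0.024, Chrnb2 at -0.011 and Chrna3 at -0.35, the last of them called (adjusted p = 0.0352). Genes with few reads (Chrm5 and Htr4 in cortex, Chrna1, and the 14 below the filter) had the least precise ratios.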
